A study of Mus musculus with 37 samples.

Results

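The genes described here are 7 genes of epithelial adhesion to the basement membrane, *Lama3*, *Lamb3*, *Itgb4*, *Itga6*, *Itga2*, *Itga3* and *Itgb1*, chosen by name as laminin chains and integrin subunits of epithelia, out of 31533 genes in the 3 count tables of the study. The choice was made with earlier results of these data known. VIP, the vasoactive intestinal peptide, is a neuropeptide of the enteric nervous system, and the study asked how it acts on the mouse jejunal epithelium with and without irradiation. In whole organoids from C57Bl6/J mice, 3 untreated cultures were set against 4 cultures treated with 100 nM VIP for 72 h, and mouse 4 had no untreated culture. Lgr5-EGFP+ cells, the stem and progenitor cells of the crypt, were sorted from organoids of *Lgr5*-EGFP-IRES-CreERT2 mice. In these mice a construct placed in the *Lgr5* gene encodes EGFP and a tamoxifen-inducible Cre. There were 4 untreated samples and 4 samples treated with 100 nM VIP for 72 h. In the irradiation experiment such cells were sorted from organoids of 4 mice, each in 4 states: untreated, treated with VIP for 48 h, exposed to 6 Gy, or exposed to 6 Gy and treated with VIP. All organoids grew from crypts in Matrigel, a matrix rich in laminin, with EGF, Noggin and R-spondin, and came from adult mice.

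Laminins are secreted trimers of an α, a β and a γ chain that build the sheet under every epithelium. *Lama3* and *Lamb3* encode the α3 and β3 chains of a laminin that anchors epithelial cells. Integrins are paired receptors for this matrix. *Itga6* and *Itgb4* form integrin α6β4, the core of the hemidesmosome, which ties laminin through plectin to keratin filaments, whereas integrins α3β1 and α6β1 bind laminin and integrin α2β1 binds mainly collagen, and all 3 signal through the actin cytoskeleton. In the intestine, laminin and β1 integrins are known to support the crypt stem cells.

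Of the 7 genes, 7 had a row in the tables of whole organoids (27407 genes) and of the irradiation experiment (27547 genes), and 6 in that of Lgr5-EGFP+ cells at 72 h (20500 genes), which held no row for *Lama3*. Values are counts of unique molecular identifiers (UMIs), that is, of captured mRNA molecules, and are given as CPM, the UMIs of a gene per 1000000 UMIs of the sample, after scaling by edgeR's TMM factors. Whole-organoid samples held 3722716 to 6330404 UMIs, Lgr5-EGFP+ samples at 72 h 575242 to 1104126, and those of the irradiation experiment 1075715 to 1876729. The 6 epithelial markers were present in every group, while the 8 stromal markers summed to at most 3.59 CPM in any sample, with 4 to 7 of them at 0 or without a row in each group. The 5 p53 target genes checked all rose with irradiation in untreated and in VIP-treated cells. Summed Paneth cell markers had a median of 8523 CPM in untreated sorted cells at 72 h and 9476 CPM in non-irradiated untreated cells. Untreated organoids had 9795 CPM. In the same order, summed stem and progenitor markers had medians of 5021, 3777 and 2607 CPM, but *Lgr5* itself had means of 34.8, 20.4 and 76.7 CPM. The purity of the sorted cells was not tested. In RNA from many cells, fewer cells of a type and less RNA per cell cannot be told apart.

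On the genome build GRCm38, *Lamb3* lies at chr1:193207699-193343878 on the forward strand, *Itgb4* at chr11:115974709-116008412 forward, *Itga6* at chr2:71745616-71858416 forward, *Itga2* at chr13:114833081-114932100 reverse, *Itga3* at chr11:95044474-95076801 reverse and *Itgb1* at chr8:128685654-128733200 forward. Exons of *Itgb4* overlap those of the antisense gene B230344G16Rik, and exons of *Lama3* those of Gm29200. Whether the counting used strand is not given in the sources used here, so reads of these overlaps cannot be assigned to one gene with certainty.

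Promoters from RefSeq (GRCm38.p6, 250 bases before to 50 after a transcript start) were used for 4 of the 7 genes, as 6 windows. These genes were *Lamb3*, *Itgb1*, *Itga3* and *Itga2*. No window of *Itgb4* or *Itga6* was searched, and sequence of *Lama3* was not used. Both subunits of integrin α3β1 are shown, because *Itga3* was one of the genes that passed the test with VIP, together with the stretch of *Lamb3* that holds the same letters as *Itgb1*. Capitals mark GGAATG, the core letters bound by TEAD factors, read on either strand. The *Itgb1* sequence is the 250 bases before its start (chr8:128685404-128685653, forward strand), the *Itga3* sequence is the part of its window outside the annotated gene (chr11:95076802-95076964, reverse strand), and the *Lamb3* sequence is from its second start (chr1:193302064-193302093, forward strand).
Itgb1: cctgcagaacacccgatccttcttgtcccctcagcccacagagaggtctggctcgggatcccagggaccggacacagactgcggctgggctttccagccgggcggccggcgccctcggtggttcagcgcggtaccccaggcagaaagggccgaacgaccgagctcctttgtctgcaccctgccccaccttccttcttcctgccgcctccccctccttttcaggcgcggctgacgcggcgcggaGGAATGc
Itga3: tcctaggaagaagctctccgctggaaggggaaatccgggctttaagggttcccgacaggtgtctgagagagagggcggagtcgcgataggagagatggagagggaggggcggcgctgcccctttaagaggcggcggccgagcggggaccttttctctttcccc
Lamb3: gaggggaccccaCATTCCcagggagctctc

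GGAATG was found on either strand in 14.7% of 32851 RefSeq promoter windows, and among the 6 windows of these genes in that of *Itgb1* and in the second of *Lamb3*. The AP-1 letters TGACTCA, searched on both strands, were in none of the 6 windows and in 5.20% of all windows. A match of letters is not a site at which a factor was shown to bind.

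Most whole-organoid cultures were sequenced as a pair of libraries, which were added up. Those of the VIP-treated culture of mouse 3 differed from each other. Its first and second library held *Itga2* at 18.5 and 55.2 CPM and *Itga6* at 79.0 and 148 CPM, but *Itgb4* at 35.5 and 35.2 CPM and *Itga3* at 26.0 and 32.3 CPM. The untreated culture of mouse 3 had 1 library, which was set against this summed pair. It held *Itga2* at 19.9, *Itga6* at 82.2, *Itgb4* at 22.8 and *Itga3* at 16.4 CPM. For *Itga2* and *Itga6* these values lay near those of the first VIP library. With the first library of the VIP-treated culture of mouse 3 alone, 1261 in place of 614 genes passed the test described next. *Itgb4* (log2 fold change 0.61) and *Itga3* (0.57) passed in both settings.

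The first comparison asked what VIP did to these genes in whole organoids. *Itgb4* and *Itga3* rose, each by about the same fold in every mouse, *Lamb3* and *Itgb1* were higher without passing the test, and *Itga6* and *Itga2* showed little difference. Of 12727 genes tested, 4.82% passed the threshold, a Benjamini-Hochberg adjusted p of 0.05 or less by edgeR's quasi-likelihood F-test, and so did 2 of the 6 genes tested here. Their median log2 fold change was 0.34, against -0.004 over all genes, and 5 of 6 were above 0 against 49.3% of all genes. Because the genes were chosen with earlier results of these data known, setting them against all genes is a description and not a test. DESeq2's Wald test called 300 genes and 0 of these 6, and at an unadjusted p below 0.05 edgeR called 4 of the 6, against 16.4% of all genes.

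*Itgb4*, which encodes the subunit that reaches the keratin cytoskeleton through plectin, was at 30.9, 47.0 and 24.2 CPM in the untreated organoids of mice 1, 2 and 3, and at 46.8, 72.5, 35.9 and 44.6 CPM in the VIP-treated organoids of mice 1 to 4. The groups overlapped, because the mice differed in level, but within each mouse the VIP-treated culture was the higher, by 0.59, 0.62 and 0.56 on the log2 CPM scale. The fold change was 1.52 (95% confidence interval 1.29 to 1.78, log2 fold change 0.60, SE 0.11, edgeR adjusted p = 0.00482, higher in 3 of 3 mice). The adjusted p was 0.0871 with DESeq2 and 0.0561 without mouse 2, and without the pairing by mouse the log2 fold change was 0.55 with an adjusted p of 0.671.

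*Itga3*, the α subunit of the laminin receptor α3β1, stood at 25.3, 30.9 and 17.4 CPM without VIP and at 39.1, 43.1, 28.9 and 32.1 CPM with VIP. Only the untreated culture of mouse 2 lay above the lowest VIP-treated one. The fold change was 1.51 (95% confidence interval 1.26 to 1.82, log2 fold change 0.60, SE 0.12, edgeR adjusted p = 0.0114, higher in 3 of 3 mice). This call was lost with DESeq2 (adjusted p = 0.186), without the pairing (0.506), without mouse 1 (0.122) and when each culture was represented by its first library alone, where the log2 fold change was 0.40 (adjusted p = 0.121).

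*Lamb3*, the β3 chain, was at 20.6, 22.4 and 20.8 CPM in untreated organoids and at 26.9, 41.7, 20 and 24.6 CPM after VIP. The untreated cultures lay close together and the VIP-treated culture of mouse 2 stood far above the others, while that of mouse 3 was no higher than its control. The log2 fold change of 0.45 (SE 0.17) did not pass the test (edgeR adjusted p = 0.182, higher in 2 of 3 mice). It was 0.18 without mouse 2 and 0.65 without mouse 3, where it passed (adjusted p = 1.75e-04).

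*Itgb1*, the β subunit shared by the α2, α3 and α6 chains, was at 118, 130 and 83.8 CPM in untreated and 133, 149, 105 and 118 CPM in VIP-treated organoids. It was higher in 3 of 3 mice, by a log2 fold change of 0.23 (SE 0.09, edgeR adjusted p = 0.231). *Itga6*, which pairs with *Itgb4* or *Itgb1*, was at 142, 176 and 87.2 CPM without VIP and 151, 167, 107 and 139 CPM with VIP, and its 95% confidence interval ran from a log2 fold change of -0.12 to 0.31. *Itga2*, the collagen-binding subunit, was at 46.3, 59.9 and 21.1 CPM without VIP and 37.7, 48.4, 33.2 and 37.8 CPM with VIP. It was lower with VIP in mice 1 and 2 and higher in mouse 3, so that its log2 fold change of -0.05 (95% confidence interval -0.39 to 0.29) averages opposite directions. The direction in mouse 3 rested on the second library of its VIP-treated culture, and with the first library alone the log2 fold change was -0.27 for *Itga2* and -0.02 for *Itga6*, neither past the threshold.

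*Lama3*, the α3 chain, was near the limit of detection and did not pass the filter for low counts. It had 1, 0 and 0 UMIs in the untreated organoids of mice 1, 2 and 3 and 5, 17, 3 and 1 UMIs in the VIP-treated ones of mice 1 to 4. Every VIP-treated culture held at least 1 UMI, and the culture of mouse 2 held most of them. Over the 3 mice with both cultures this was 1 UMI of 14394798 against 25 of 18264107, a ratio of 19.7 with an exact 95% interval of 3.23 to 809 that covers counting error only and not the spread between mice.

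**Figure D1:**
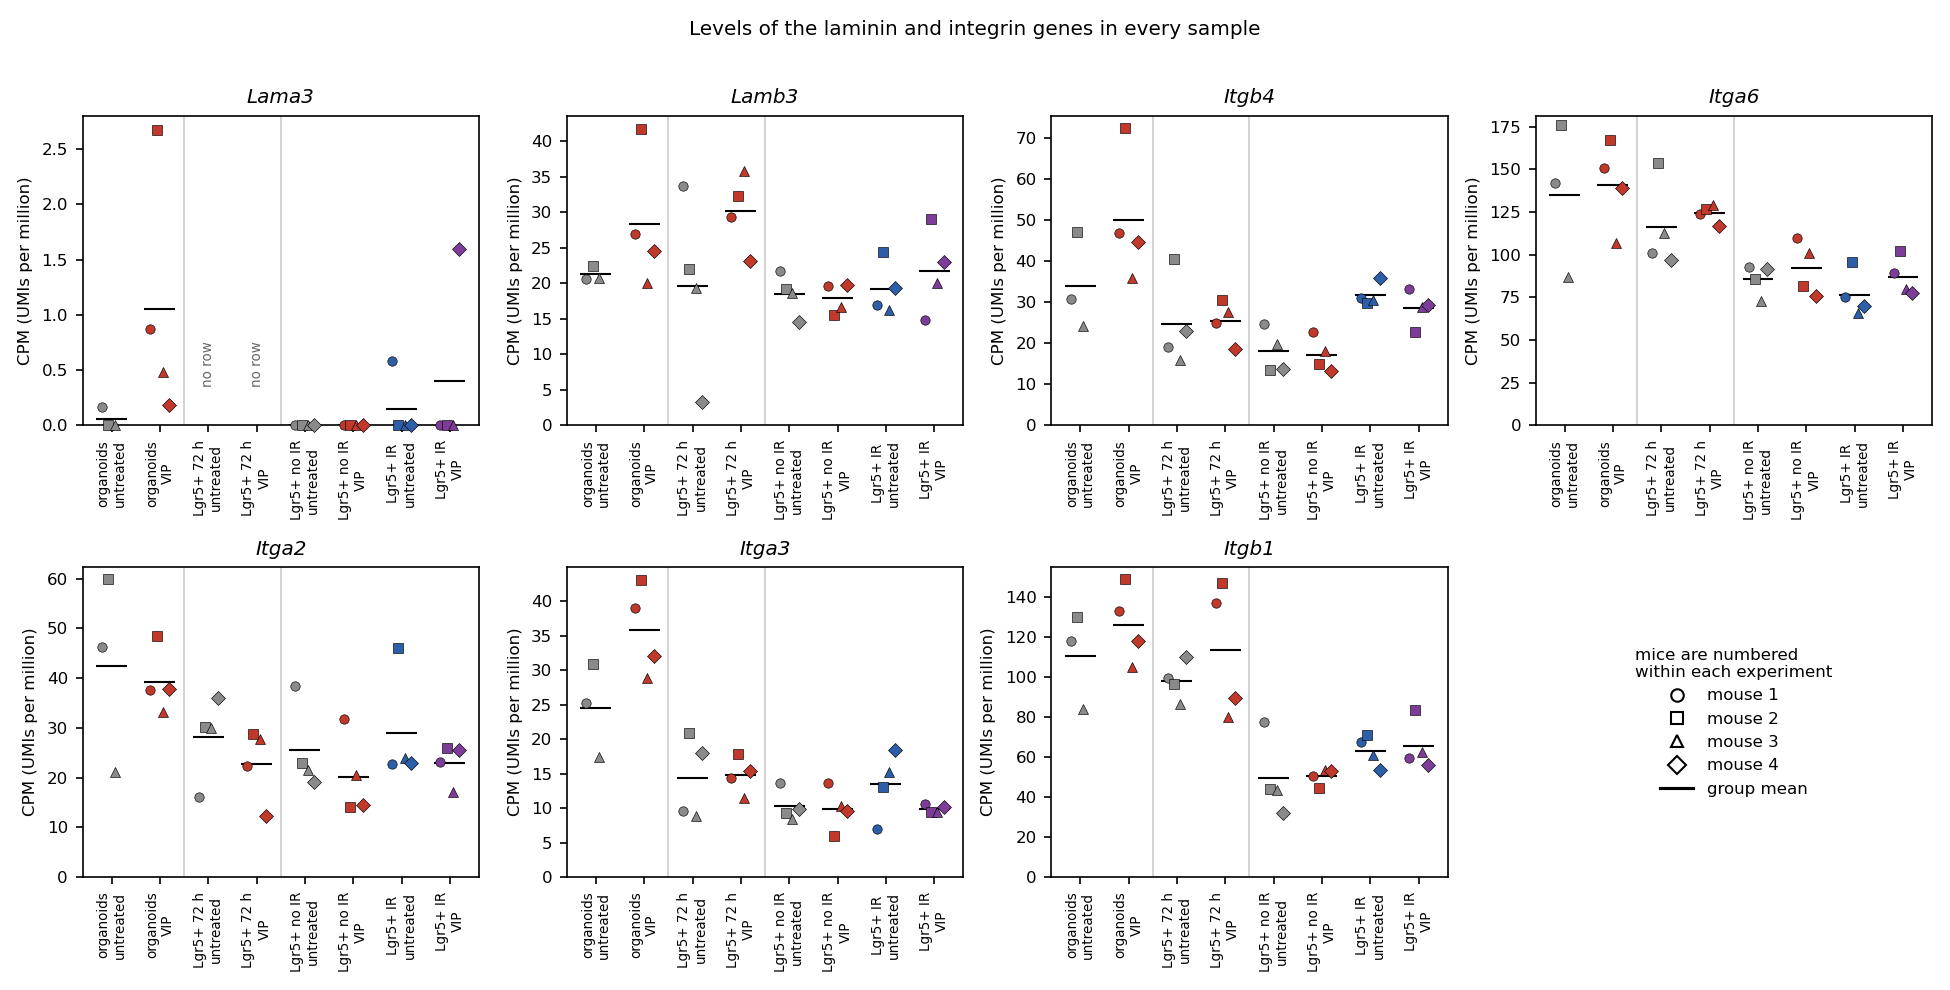
Levels of the 7 genes in CPM (y axes, from 0) in every sample of the 8 groups (x axes), with 1 point per mouse, shaped by mouse number, and a line at the group mean; vertical lines separate the 3 experiments, which were normalized separately. *Itgb4* in the irradiated Lgr5-EGFP+ groups (29.8 to 35.9 CPM untreated, 22.8 to 33.2 CPM with VIP) lies above the non-irradiated group of the same treatment, and *Lama3* stays at or near 0 in most samples.

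Markers of other cell types moved in the same comparison, in which 4.82% of all genes passed. Of 5 goblet cell markers 4 rose with VIP, of 6 epithelial markers 4 rose, *Krt8*, *Krt18* and *Krt19* among them, and of 6 enterocyte markers 2 rose and 1 fell. The summed Paneth cell markers overlapped, at 9342 to 16874 CPM without and 10471 to 15961 CPM with VIP. The summed goblet markers ran from 4754 to 6301 CPM without VIP and from 6549 to 8185 CPM with VIP. Immune markers summed to 2.70 to 5.70 CPM without VIP and 4.54 to 6.42 CPM with VIP. The part of these shifts in cell type markers in the rise of *Itgb4* and *Itga3* was not tested.

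The partners of these genes were read from 5 lists of 63 genes in all. With VIP in whole organoids, 33 of the 63 could be tested, and 6 rose and 0 fell by edgeR, while DESeq2 called 3. By edgeR 4.82% of all genes passed. At an unadjusted p below 0.05 edgeR called 11 of the 33, against 16.4% of all genes. The lists, too, were chosen with earlier results of these data known. Of 8 other laminin chains 2 were tested and 1 rose. *Lama5*, the α5 chain of the main laminin of the adult intestinal basement membrane, was at 4.05, 5.55 and 3.14 CPM without VIP and 8.21, 10.9, 4.81 and 7.52 CPM with VIP (log2 fold change 0.91, SE 0.24, edgeR adjusted p = 0.0465), and passed under only 4 of 11 alternatives.

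Of 6 hemidesmosome partners 5 were tested and 3 rose with VIP. *Plec*, which encodes plectin, was at 83.3, 93.4 and 48.5 CPM without VIP and 121, 154, 79.2 and 99.1 CPM with VIP (log2 fold change 0.65, SE 0.10, edgeR adjusted p = 0.00141). Each VIP-treated culture was above the untreated culture of its mouse, and the call held in 10 of 11 alternatives. The keratins of simple epithelia *Krt8* (log2 fold change 0.52) and *Krt18* (0.49), to which plectin links the hemidesmosome, rose too, each in 3 of 3 mice, and both are also on the list of epithelial markers. Of 15 other basement membrane genes 6 were tested and 1 rose, *Agrn*, a proteoglycan of basement membranes (log2 fold change 0.65, edgeR adjusted p = 0.0139, DESeq2 adjusted p = 0.198). Of 18 focal adhesion adaptors 16 were tested and 1 rose, *Actn4*, an actin cross-linker (log2 fold change 0.33, edgeR adjusted p = 0.0488, DESeq2 adjusted p = 0.272), with a median log2 fold change of 0.11 over the list. *Agrn* and *Actn4* each passed under 7 of 11 alternatives. Of 16 other integrin subunits 4 were tested and none passed with edgeR or DESeq2, 1 of them at an unadjusted p below 0.05.

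**Figure D2:**
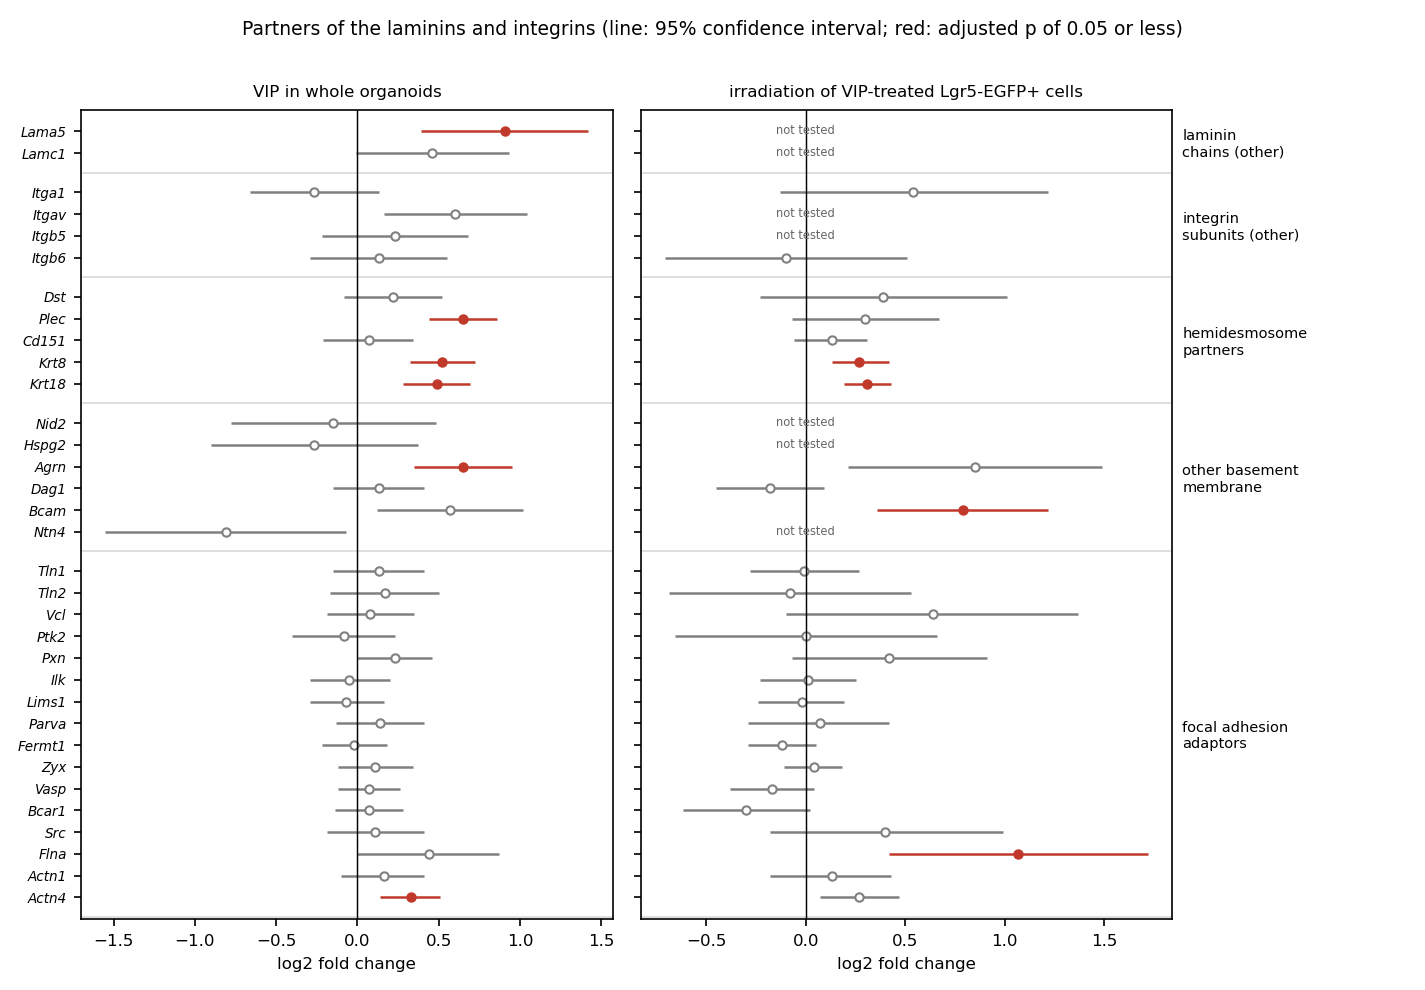
Log2 fold changes (x axes) with 95% confidence intervals of the tested genes of the 5 lists (y axis) for VIP in whole organoids and for irradiation of VIP-treated Lgr5-EGFP+ cells; red marks an edgeR adjusted p of 0.05 or less. The highest log2 fold changes of the red genes are 0.91 for *Lama5* in whole organoids and 1.07 for *Flna* in the irradiated cells, and no gene past the threshold lies below 0.

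The second comparison asked about VIP in sorted Lgr5-EGFP+ cells. After 72 h, 6 of 6778 genes tested passed the threshold (0.0885%), and 0 of the 5 genes tested here did with edgeR or with DESeq2, or at an unadjusted p below 0.05. *Itga3* fell below the filter for low counts, with 5 to 18 UMIs per sample. The intervals were wide. For *Itgb4*, at 19.2, 40.6, 15.9 and 23.0 CPM without VIP and 25, 30.5, 27.7 and 18.5 CPM with VIP, the log2 fold change was 0.07 with a 95% confidence interval of -0.55 to 0.69. That interval includes the change seen in whole organoids, so a rise of that size could not be told from none in these samples. *Lamb3* was at 33.7, 22.0, 19.4 and 3.28 CPM without VIP and 29.4, 32.3, 35.9 and 23.1 CPM with VIP, and its log2 fold change of 0.64 (SE 0.33, edgeR adjusted p = 0.884) rested in part on the untreated sample of mouse 4, which held 2 UMIs. *Itga6* differed little, with a log2 fold change of 0.11 (95% confidence interval -0.22 to 0.45), at 96.8 to 154 CPM without and 117 to 129 CPM with VIP. Of the 63 partner genes 19 were tested, and 0 passed with edgeR, with DESeq2 or at an unadjusted p below 0.05.

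Whether VIP acted differently in whole organoids and in Lgr5-EGFP+ cells was tested as an interaction. Organoids and sorted cells came from different experiments, mouse lines and depths, which this term cannot tell apart from the kind of cells. Of 10186 genes 0.147% passed, and 0 of 6 members with edgeR, DESeq2 or at an unadjusted p below 0.05. The log2 fold change of *Itgb4* was lower in the Lgr5-EGFP+ cells by a difference of -0.54 (95% confidence interval -1.14 to 0.06, edgeR adjusted p = 0.848) and that of *Itga3* by -0.53 (-1.25 to 0.20, edgeR adjusted p = 0.892). The rise of both in whole organoids is thus not shown to differ from the response of the sorted cells. Of the 63 partner genes 28 were tested, and 0 passed with edgeR or DESeq2. At an unadjusted p below 0.05 there were 4 of them, against 6.24% of all genes, and 3 of the 4 were hemidesmosome partners. The 5 hemidesmosome partners tested had a median difference of -0.49.

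In the irradiation experiment VIP was given for 48 h. Of the 6 genes tested, 0 passed in non-irradiated cells, where 0.742% of 9976 genes did, and 0 in irradiated cells, where 0.221% did. This count was 0 with edgeR, with DESeq2 and at an unadjusted p below 0.05. That unadjusted p was reached by 12.4% of all genes in non-irradiated and 5.75% in irradiated cells. In non-irradiated cells the log2 fold changes ran from -0.33 for *Itga2*, which was lower in 4 of 4 mice, to 0.10 for *Itga6*. In irradiated cells they ran from -0.39 for *Itga3* to 0.17 for *Itga6*, which was higher in 4 of 4 mice. The interval of *Itgb4* was -0.49 to 0.33 in non-irradiated and -0.49 to 0.20 in irradiated cells, which leaves out the log2 fold change of 0.60 measured in whole organoids after 72 h, but the time, the cells and the mice all differed. Of the 63 partner genes 26 were tested, and none passed with edgeR or DESeq2 in either state. At an unadjusted p below 0.05 there were 0 and 3 of them, against 12.4% and 5.75% of all genes.

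**Figure D3:**
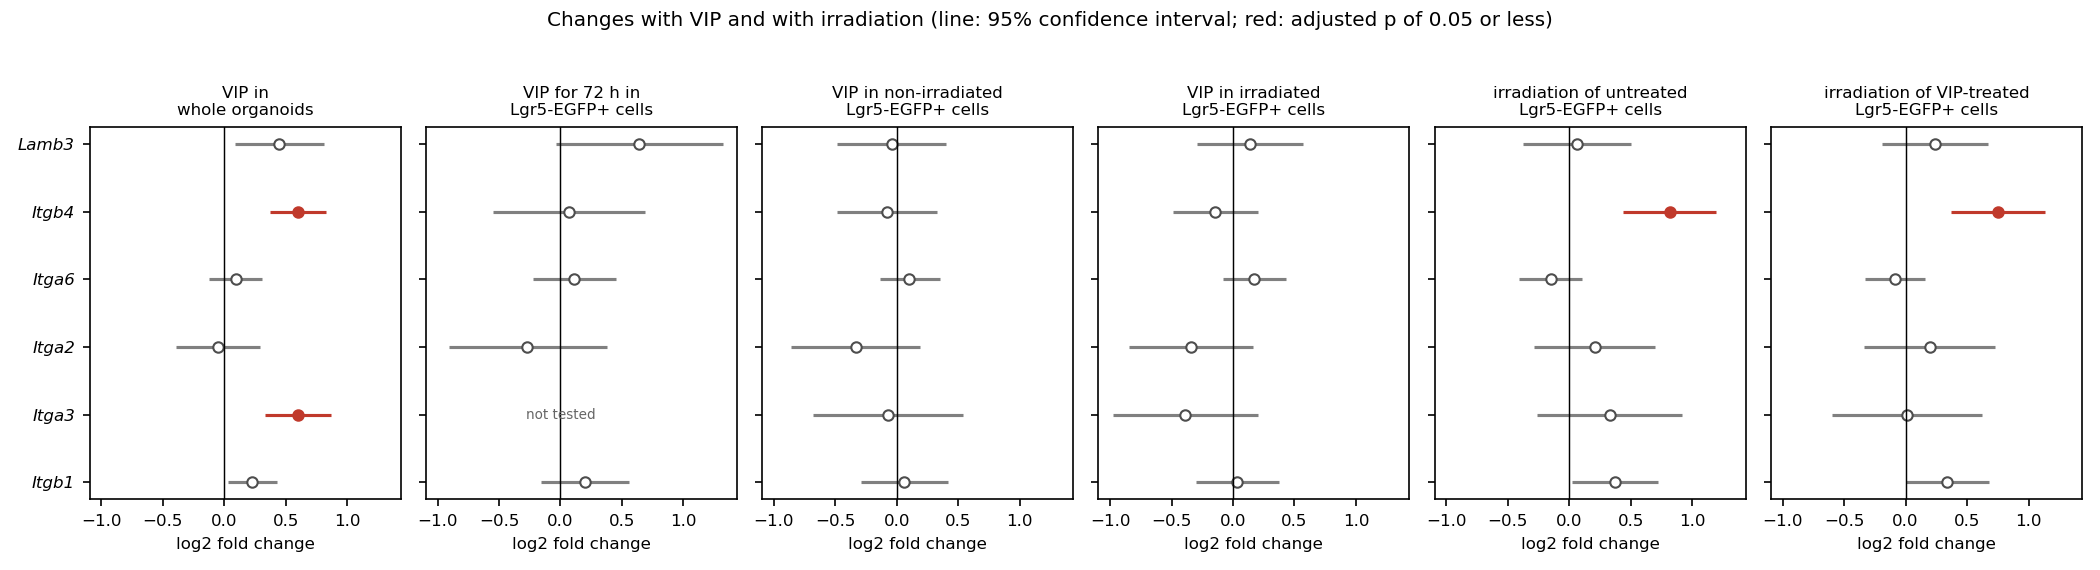
Log2 fold changes (x axes) with 95% confidence intervals of the 6 genes tested (y axis) in 4 comparisons of VIP with no treatment and 2 of irradiation with none; red points have an edgeR adjusted p of 0.05 or less. *Itgb4* is red in whole organoids (0.60) and in both comparisons of irradiation (0.82 and 0.75), *Itga3* in whole organoids alone (0.60), and *Itga3* was not tested in Lgr5-EGFP+ cells at 72 h.

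Irradiation with 6 Gy raised *Itgb4* in Lgr5-EGFP+ cells, and no other of these genes passed the test. In untreated cells 4.46% of 9976 genes passed and 1 of the 6 members did, and in VIP-treated cells 7.78% passed and again 1 of 6. The median log2 fold change of the 6 genes was 0.27 and 0.22, against -0.004 and 0.001 over all genes. Here too the values against all genes are descriptions, since the choice of genes was made with earlier results known. At an unadjusted p below 0.05 there were 2 of 6 in each comparison, *Itgb4* and *Itgb1*, against 16.7% and 21.7% of all genes.

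*Itgb4* was at 24.8, 13.6, 19.8 and 13.8 CPM in the non-irradiated and at 31.0, 29.8, 30.5 and 35.9 CPM in the irradiated untreated cells of mice 1 to 4. The groups did not overlap, and the irradiated samples lay closer together than the non-irradiated ones. The fold change was 1.76 (95% confidence interval 1.36 to 2.29, log2 fold change 0.82, SE 0.18, edgeR adjusted p = 0.00710, higher in 4 of 4 mice). DESeq2 gave an adjusted p of 0.0316, and the call was lost without mouse 2 (0.0886) and without mouse 4 (0.112), the mice with the largest differences, 1.06 and 1.30 on the log2 CPM scale.

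With VIP, *Itgb4* was at 22.7, 14.9, 18 and 13.2 CPM without and at 33.2, 22.8, 28.8 and 29.4 CPM with irradiation. The groups lay next to each other without overlap, at 22.7 and 22.8 CPM at their nearest, with mouse 1 the highest and mouse 2 the lowest of the irradiated samples. The fold change was 1.68 (95% confidence interval 1.29 to 2.19, log2 fold change 0.75, SE 0.18, edgeR adjusted p = 0.0108, higher in 4 of 4 mice). It did not pass with DESeq2 (adjusted p = 0.0559), without mouse 3 (0.0521) or without mouse 4 (0.109). Both comparisons of irradiation kept the call without the replicate block.

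*Itgb1* was at 77.4, 44.0, 43.6 and 32.2 CPM in non-irradiated and 67.3, 71.0, 61.1 and 53.3 CPM in irradiated untreated cells. Mouse 1 was lower after irradiation and the other mice higher (log2 fold change 0.37, SE 0.17, edgeR adjusted p = 0.258), and without mouse 1 the log2 fold change was 0.65 (adjusted p = 0.0137). In VIP-treated cells *Itgb1* was at 50.6, 44.7, 53.3 and 52.9 CPM without and 59.6, 83.4, 62.4 and 56.1 CPM with irradiation, higher in 4 of 4 mice but not past the threshold (log2 fold change 0.34, edgeR adjusted p = 0.225). These groups did not overlap.

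*Itga6* was at 92.9, 86.0, 73.0 and 91.5 CPM in non-irradiated and 75.5, 95.5, 65.8 and 69.9 CPM in irradiated untreated cells, with a log2 fold change of -0.15 (95% confidence interval -0.41 to 0.10). In VIP-treated cells it was -0.09 (-0.33 to 0.16). *Lamb3*, at 14.5 to 21.7 CPM without and 16.2 to 24.4 CPM with irradiation in untreated cells, had log2 fold changes of 0.06 and 0.24, neither past the threshold. *Itga2* and *Itga3* overlapped between the groups in both comparisons, with log2 fold changes of 0.21 and 0.33 in untreated and of 0.20 and 0.01 in VIP-treated cells. *Lama3* had 1 UMI in the irradiated untreated sample of mouse 1 and 3 UMIs in the irradiated VIP-treated sample of mouse 4, and 0 UMIs in the other samples of this experiment.

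A 0 there allows a level of up to 1.58 to 2.86 CPM, that of 3 counts in the deepest and the shallowest sample, so no fold is given for *Lama3*. The interaction of VIP and irradiation passed the threshold for 0 of 9976 genes (0%) with edgeR and with DESeq2, and 634 genes, none of them among these 6, had an unadjusted p below 0.05. For *Itgb4* the change with irradiation differed between VIP-treated and untreated cells by -0.07 (95% confidence interval -0.61 to 0.47).

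In the 3 comparisons in which *Itgb4* passed, the subunits of integrin α6β4 gave different values in the same samples. The within-mouse change of *Itgb4* minus that of *Itga6*, in log2 CPM, was 0.49 ± 0.22 (SD, n = 3) with VIP in whole organoids, 0.98 ± 0.48 (n = 4) with irradiation of untreated cells and 0.78 ± 0.36 (n = 4) with irradiation of VIP-treated cells. It was above 0 in 3 of 3, 4 of 4 and 4 of 4 mice. Exact two-sided sign-flip permutation tests gave p = 0.250, 0.125 and 0.125, the smallest that 3 and 4 mice allow, or 0.250, 0.188 and 0.188 after adjustment over the 3 comparisons, so this design could not reach 0.05. *Itgb4* was among the genes that passed in these comparisons, so the sign of the difference follows in part from that result. In the other comparisons of VIP the log2 fold change of *Itgb4* was below that of *Itga6*. The values were 0.07 and 0.11 at 72 h in Lgr5-EGFP+ cells and -0.08 and 0.10 in non-irradiated cells. In irradiated cells they were -0.15 and 0.17, with *Itgb4* the lower in each mouse.

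**Figure D4:**
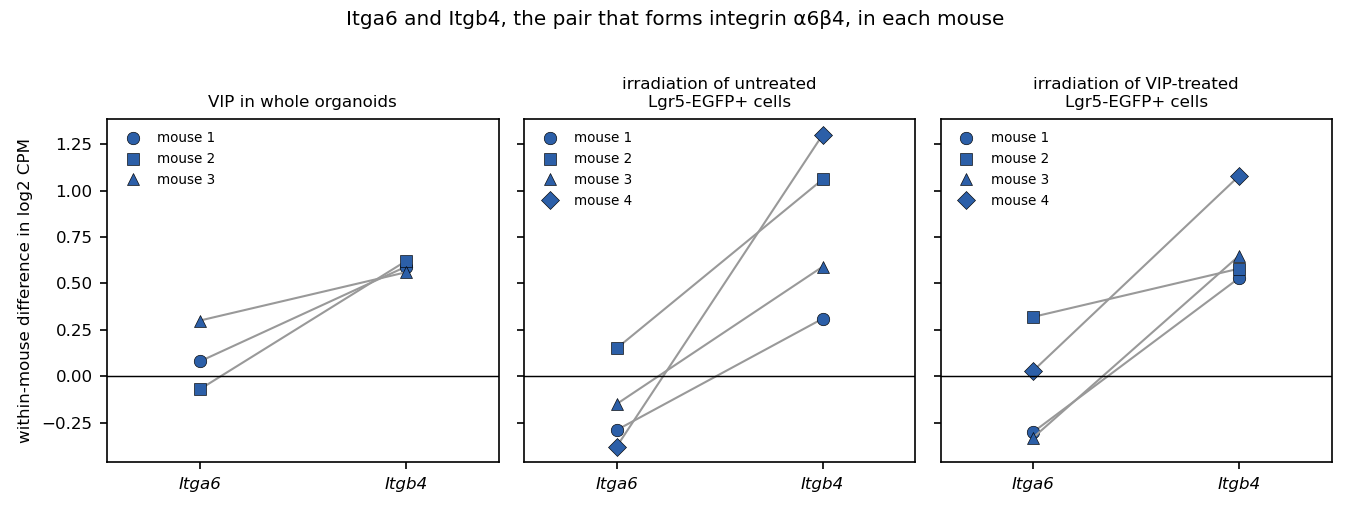
Within-mouse differences in log2 CPM (y axis) of *Itga6* and *Itgb4*, with points joined within a mouse, for VIP in whole organoids and for irradiation of untreated and of VIP-treated Lgr5-EGFP+ cells. In each mouse of these comparisons, which are those in which *Itgb4* passed, *Itgb4* lies above *Itga6*, on average by 0.49, 0.98 and 0.78.

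Markers of other cells moved with irradiation too, where 4.46% of all genes passed in untreated and 7.78% in VIP-treated cells. All 5 Paneth cell markers rose in both comparisons, 4 of 5 goblet markers rose in untreated and 3 of 5 in VIP-treated cells, and of 6 stem and progenitor markers *Olfm4* and *Smoc2* fell in both. Of 6 enterocyte markers 2 rose in untreated cells (median log2 fold change 0.97) and 0 passed in VIP-treated cells (0.56), with all 6 above 0 in both, and of 6 epithelial markers 2 and 3 rose and 0 and 1 fell. Summed enterocyte markers were at 411 to 776 CPM in non-irradiated and 727 to 2082 CPM in irradiated untreated cells, and at 259 to 470 and 478 to 565 CPM in VIP-treated cells. Summed Paneth markers were at 8254 to 12155 CPM in non-irradiated and 11890 to 22935 CPM in irradiated untreated cells, and at 7100 to 8158 and 11888 to 13672 CPM in VIP-treated cells. Stromal markers stayed at or below 3.10 CPM in all 4 groups. The part of these shifts in the rise of *Itgb4* was not tested.

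Among the partner genes, *Krt8* and *Krt18* rose with irradiation in both comparisons, each in 4 of 4 mice. Their log2 fold changes were 0.30 and 0.34 in untreated cells and 0.27 and 0.31 in VIP-treated cells. In untreated cells these were the only ones of 26 tested that passed, against 4.46% of all genes, and 8 had an unadjusted p below 0.05, against 16.7%. In VIP-treated cells 4 of 26 rose by edgeR, where 7.78% of all genes passed, and 2, the keratins, by DESeq2.

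The others were *Bcam*, a receptor for the laminin α5 chain (log2 fold change 0.79, edgeR adjusted p = 0.0171), and *Flna*, an actin cross-linker that binds integrin tails (1.07, edgeR adjusted p = 0.0361). Each of these passed under 6 of 10 alternatives.

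Set in order of mean level, most neighbouring groups overlapped in their samples, and since the 3 tables were normalized separately, levels across experiments are given side by side only. *Itgb4* was at 49.9 ± 15.8 CPM (SD, n = 4) in VIP-treated and 34.0 ± 11.7 (n = 3) in untreated organoids, then at 31.8 ± 2.74 and 28.6 ± 4.31 in irradiated untreated and VIP-treated Lgr5-EGFP+ cells, 25.4 ± 5.13 and 24.7 ± 11.0 with and without VIP at 72 h, and 18 ± 5.34 and 17.2 ± 4.15 in non-irradiated untreated and VIP-treated cells (n = 4 each). *Itga3* ran from 35.8 ± 6.48 CPM in VIP-treated organoids to 9.86 ± 3.13 in non-irradiated VIP-treated Lgr5-EGFP+ cells. *Itga6* ran from 141 ± 25.3 CPM in VIP-treated organoids to 76.7 ± 13.1 in irradiated untreated cells. *Lamb3* stayed between 17.9 ± 2.11 and 30.2 ± 5.39 CPM in all 8 groups, and *Itga2* between 20.2 ± 8.23 and 42.4 ± 19.7 CPM. For these 5 genes every group overlapped with its neighbour in the order. *Itgb1* ran from 126 ± 19.1 CPM in VIP-treated organoids to 49.3 ± 19.5 in non-irradiated untreated cells, and was the one gene with neighbours apart, between untreated cells at 72 h and irradiated VIP-treated cells, and, by less than rounding shows, between irradiated untreated and non-irradiated VIP-treated cells.

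Across the 16 samples of the irradiation experiment, with each mouse's mean removed, the members varied together in part. Pearson's r between pairs had a median of 0.39 over 15 pairs and was above 0 in 13. It was highest for *Lamb3* and *Itgb1* (0.74), *Itga2* and *Itga3* (0.73) and *Itgb4* and *Itgb1* (0.64), and lowest for *Itgb4* and *Itga6* (-0.32). The genes with the pattern most like the mean of the members, among 9970 genes, were *Supt5*, a transcription elongation factor (r = 0.95), Gm17066 (0.92), *Atrx*, a chromatin remodeller (0.92), *Rnf10* (0.89) and Mir6236 (0.89). None of these 5 passed the test for irradiation in untreated or VIP-treated cells. The points share mice, libraries and the contrast of irradiation, so these values are descriptions of this set of libraries.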

How the data were processed

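RNA was primed with barcoded oligo-dT carrying UMIs, and the authors derived counts per gene with the Drop-seq pipeline 1.0, aligning to GRCm38 and annotating with GENCODE M25. These whole-number counts were deposited without normalization, and each of the 37 columns was assigned to a sample. UMIs count captured 3′ ends, so levels were compared within a gene only. Libraries of a culture were summed.

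Tests were run with edgeR 4.0.16 in R 4.3.3, with TMM, filterByExpr by group and quasi-likelihood tests. Mouse number from the labels was a block, and Benjamini-Hochberg adjustment ran over all genes tested. On simulated counts with 4-fold changes, 94.0% to 100% of the changed genes were recovered, and 3.59% to 6.57% of calls were false. Smaller changes, such as those of the members, and differences between mice were not simulated. Mouse numbers stand for mice that gave cultures to several groups. Same-mouse samples correlated in their deviations from group means at 0.27 to 0.63 in whole organoids, 0.03 to 0.21 in Lgr5-EGFP+ cells and -0.07 to 0.16 in the irradiation experiment, against -0.54 to 0.33, -0.14 to 0.15 and -0.20 to 0.20 for different mice. Nothing else says how far samples of a group were independent cultures. Log2 CPM used a prior count of 2.

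All 7 members are named, as are the genes of 5 partner lists past the threshold (at most 6 per list and comparison) and the 5 genes most like the members. An item of these lists is not reported here. Members and lists were chosen with earlier results of these data known, and p-values are not independent of that choice. The study itself used DESeq2, which (1.42.0, Wald test) was an alternative here, with RLE factors, library size only, all genes with a count, no block, each mouse left out, the first technical library only, and only the 2 groups compared. Positions are from GENCODE M21 on GRCm38. Sequence of *Lama3* and proteins were not used here.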

Additional observations from a re-analysis of the deposited data

Results flagged for a closer look

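Of 45 groups of 4 samples tested for a sample far from the others, 3 were marked, and chance marks about 1 in 20 groups. *Itga2* stood at 46.1 CPM (85 UMIs) in the irradiated untreated Lgr5-EGFP+ cells of mouse 2, against 22.8 to 23.9 CPM in the other mice, a gap of 0.955 of the whole range of the group. *Lama3* was at 1.60 CPM (3 UMIs) in the irradiated VIP-treated cells of mouse 4 and at 0.585 CPM (1 UMI) in the irradiated untreated cells of mouse 1. The other samples of both groups had 0 UMIs, so any count there makes the gap the whole range. The rate of 1 in 20 does not apply to these marks, and the values lie at the limit of detection.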

How the results depend on the processing

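Of 471 values of the members under the alternatives, 415 kept their direction and side of the threshold, 12 lost a call, 2 gained one and 42 changed sign, none of the last with a call in either setting. Depth limits *Lama3* and, in sorted cells, *Itga3*. Of the 6 members tested with VIP in whole organoids, 2 passed, but 0 with DESeq2, 0 without the replicate block, 1 with the first technical replicate library only and 1 to 3 without a mouse. After irradiation of untreated cells 1 passed, and 0 to 2 without a mouse. After irradiation of VIP-treated cells 1 passed, 0 with DESeq2 and 0 to 1 without a mouse. The block changed no other call of a member.

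Some sign changes concerned log2 values near 0. Others concerned larger ones when a mouse was left out, such as *Itga2* with VIP at 72 h in Lgr5-EGFP+ cells (-0.27 with all mice). The cause of the sign changes was not tested. With the first technical replicate library only, *Itga6* was -0.14 with VIP in whole organoids, and the interaction of VIP and compartment was 0.13 for *Itga2* and 0.06 for *Itgb1*. With VIP-treated mouse 3 represented by its first library, *Itga6* was -0.02 and that interaction 0.0044 for *Itga2*. Without the block, *Itgb4* was -0.02 at 72 h in Lgr5-EGFP+ cells and the compartment interaction of *Itgb1* 0.04. With all genes with a count, *Itga3* was -0.0046 for irradiation of VIP-treated cells and the interaction of VIP and irradiation 0.01 for *Itga2*, which was 0.0038 with library size only.

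Leaving out each mouse in turn gave these ranges where the sign changed. With VIP, *Itga2* ran from -0.30 to 0.11 in whole organoids, and at 72 h in Lgr5-EGFP+ cells *Itgb4* from -0.12 to 0.29 and *Itga2* from -0.50 to 0.08. With VIP in non-irradiated cells, *Lamb3* ran from -0.19 to 0.02, *Itga6* from -0.02 to 0.23, *Itga3* from -0.19 to 0.05 and *Itgb1* from -0.13 to 0.35, and in irradiated cells *Itgb1* from -0.02 to 0.10. With irradiation of untreated cells, *Lamb3* ran from -0.07 to 0.22 and *Itga2* from -0.20 to 0.60. With irradiation of VIP-treated cells, *Itga6* ran from -0.21 to 0.01, *Itga2* from -0.02 to 0.48 and *Itga3* from -0.13 to 0.16. The interaction of VIP and irradiation ran from -0.20 to 0.07 for *Itgb4*, -0.05 to 0.17 for *Itga6*, -0.21 to 0.22 for *Itga2* and -0.25 to 0.15 for *Itgb1*. That of VIP and compartment ran from -0.17 to 0.58 for *Lamb3*, -0.06 to 0.08 for *Itga6*, -0.61 to 0.14 for *Itga2* and -0.19 to 0.16 for *Itgb1*.

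The number of all genes past the threshold moved more. With VIP in whole organoids 614 passed, 300 with DESeq2, 979 with all genes with a count, 99 without the block, 1261 with VIP-treated mouse 3 represented by its first library and 363 to 1668 without a mouse. At 72 h in Lgr5-EGFP+ cells 6 passed, and 1 to 17 under the alternatives. With VIP, 74 passed in non-irradiated cells (32 to 184) and 22 in irradiated cells (5 to 110). With irradiation, 445 passed in untreated cells (281 with DESeq2, 176 to 643 without a mouse) and 776 in VIP-treated cells (489 with DESeq2, 426 to 691 without a mouse). For the interactions 0 passed with irradiation (0 to 34) and 15 with the compartment (0 to 57).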
